A study of Salmo salar with 8 samples.

Results

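The nuclei described here were gated by flt3 (LOC106579503) in single nucleus RNA sequencing of the Atlantic salmon gill. A nucleus was taken when it held at least 1 flt3 UMI (a unique molecular identifier, the count of 1 captured transcript) and at least 1000 CPM of flt3 (counts per 1000000 UMIs of that nucleus), and none of the T cell genes cd3e, CD3G (LOC100136515), CD247 (LOC106575734 and cd3z) and CD2 (LOC106575540). The members were thus selected on the measured flt3 and T cell gene counts of the same nuclei. The rule took 274 of 19709 nuclei (1.39%). The working name of these nuclei is myeloid or dendritic cells, and how far their genes bear out that name is described below. Their difference from other nuclei is therefore given as a description without a test.

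Gills were sampled at 4 time points, with 2 samples each. T1 fish were freshwater parr kept in constant light, T2 fish had spent 8 weeks in a short photoperiod, T3 fish had then spent 8 weeks back in constant light, and T4 fish were T3 fish moved to seawater for 24 h. The labels do not say whether the samples of a time point came from separate fish, so p-values measure only the spread between these samples. T1, T3 and T4 share constant light, and age and developmental stage move with the time point and cannot be told apart from it.

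FLT3 is a receptor tyrosine kinase that binds FLT3 ligand. In mammals it is kept by early blood progenitors and by the dendritic cell lineage, where its signal sustains the production of dendritic cells. Dendritic cells take up material in barrier tissues, digest it in lysosomes and present peptides on MHC class II molecules to T cells, and the gill is such a barrier in fish.

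The sequencing was shallow for single nuclei, and the gate rested on few molecules. The gated nuclei held a median of 663 UMIs (range 423 to 2188), against 854 in all nuclei outside the gate. A single flt3 UMI was the whole evidence in 175 of the 274 nuclei (63.9%), and 99 nuclei held 2 or more. In all, 473 nuclei held a flt3 UMI, of which 323 reached 1000 CPM and 49 of those were removed by a T cell gene. The gate held 478 of all 739 flt3 UMIs (64.7%). Since 1 UMI passes the CPM minimum only in a nucleus of at most 1000 UMIs, the gate favoured nuclei with few UMIs: the 109 nuclei that had a flt3 UMI and no T cell gene but missed the minimum had a median of 1799 UMIs. Just inside the minimum, at 1000 to under 1100 CPM, lay 18 nuclei with a median of 951 UMIs, and just outside, at 900 to under 1000 CPM, lay 14 with a median of 1042.5 UMIs. No doublet caller was run. No gated barcode recurred in another library. Over the series, 98 of the 19709 nuclei had a barcode that was also found in another library.

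Apart from flt3, the leading genes of the gated nuclei were mostly loci that the gene tables used here do not name. The few named ones included genes of leukocyte adhesion and movement and lysosomal enzymes. The 25 leading genes were those with the largest ratio of mean level, gated over all other nuclei, among the 461 genes with at least 50 UMIs in the gate and 1 in each sample. Levels are in CPM, here over the summed UMIs of a class of nuclei in a sample. Flt3 itself averaged 2245 ± 451 CPM in gated nuclei and 9.49 ± 5.83 in all other nuclei (SD, n = 8 samples), a difference that the rule set. Of the other 24 genes, 23 were higher in the gated nuclei in 8 of 8 samples and LOC106562284 was higher in 7. Since the genes were ranked by this ratio over the same samples, that count was largely set by the choice. Over all 461 eligible genes, 82 were higher in 8 of 8 samples. Only 9 of the 25, flt3 included, had a name.

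Integrin beta-2 (ITGB2, LOC106581859) is the shared chain of the leukocyte integrins that hold these cells to vessel walls and to other cells. Its level in gated nuclei was 441 and 350 CPM at T1, 86.4 and 710 at T2, 331 and 222 at T3, and 254 and 410 at T4, and no sample of the other nuclei exceeded 22.5. These levels, each summed over the nuclei of a sample, thus did not overlap between gated and other nuclei. This does not hold for single nuclei, since an ITGB2 UMI was seen in only 38 gated nuclei (13.9%). ITGB2 averaged 44.4 ± 23.9 CPM in the nuclei gated by T cell genes, with 80.2 in the highest sample, close to the lowest gated value. Fucosyltransferase 7 (fut7) makes the sugar ligand by which leukocytes bind selectins, and it averaged 232 ± 186 in gated nuclei and 24.8 ± 12.7 in other nuclei. In the nuclei gated by T cell genes fut7 averaged 118 ± 56.8, and the gated nuclei were higher in only 6 of 8 samples. Myosin 1f (myo1f, LOC100380684), a motor of leukocyte cortical actin in mammals, averaged 397 ± 283 in gated nuclei, 114 ± 87.2 in nuclei gated by T cell genes and 40.3 ± 17.4 in other nuclei. A plexin-C1-like locus (LOC106576206), of the receptor family for semaphorins, averaged 375 ± 248 in gated nuclei, 45.0 ± 13.0 in nuclei gated by T cell genes and 25.8 ± 15.2 in other nuclei.

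Other named leading genes were less tied to leukocytes. Rnt2, a secreted and lysosomal ribonuclease of the T2 family, averaged 671 ± 290 CPM in gated nuclei and 25.7 ± 15.6 in other nuclei. Ppt2a, a lysosomal thioesterase, averaged 235 ± 126 in gated nuclei and 14.3 ± 5.83 in other nuclei. The leading list also held trpv1, a heat and capsaicin channel of sensory neurons, at 219 ± 148 in gated nuclei and 23.0 ± 10.8 in other nuclei. After flt3 the largest ratio belonged to the unnamed locus LOC106579933, at 588 ± 330 in gated nuclei and 12.0 ± 5.44 in other nuclei, a log2 ratio of 4.76 with 10 CPM added to each mean. It had a UMI in 93 of the 274 gated nuclei.

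**Figure D1:**
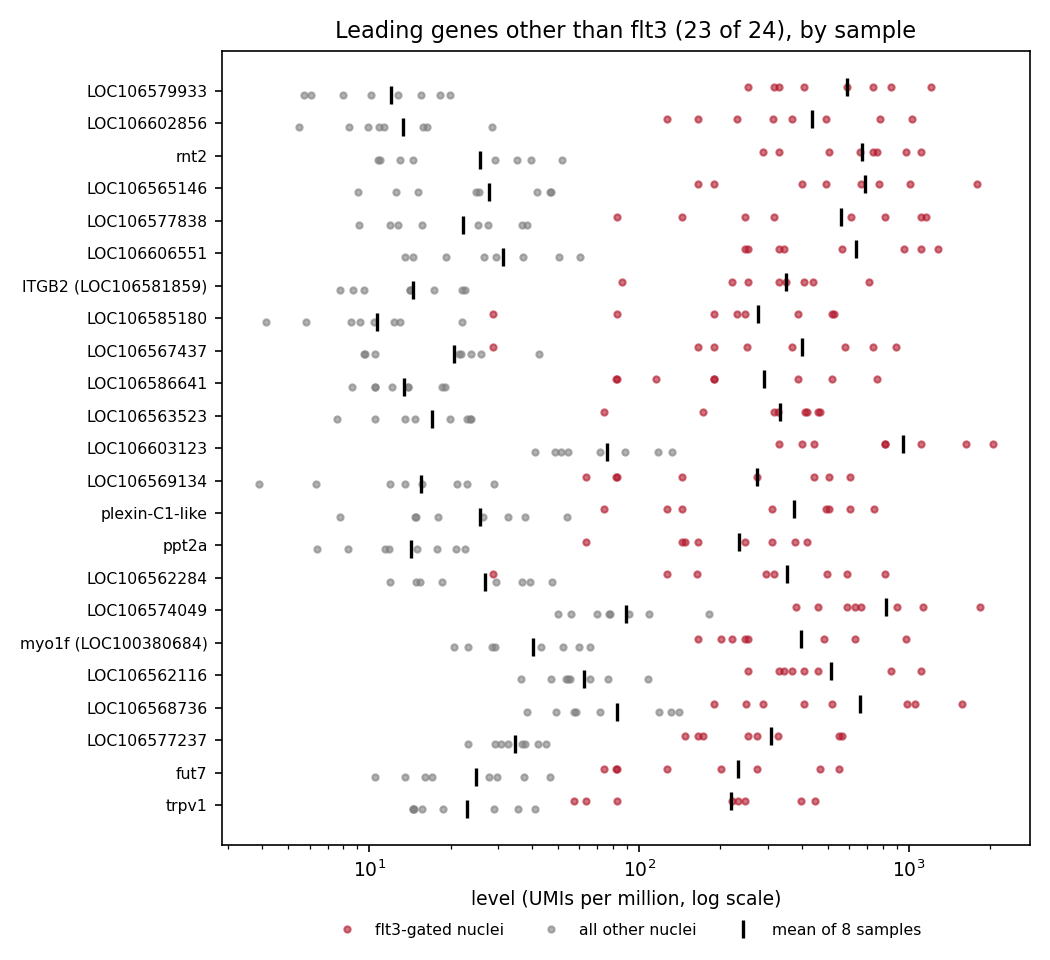
Leading genes other than flt3, 23 of the 24, in rows by rank, with the level in CPM on a log axis. Red points are the gated nuclei of each of the 8 samples, grey points all other nuclei of the same samples, and black ticks the mean of 8 samples. For 22 of the 23 genes shown the gated nuclei lay above the other nuclei in 8 of 8 samples, which the ranking by this ratio favoured.

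The gate was not shown to be pure by these genes. A median of 5 of the 24 genes had a UMI in a gated nucleus, but 50 of the 274 (18.2%) had none of them. Of these 50, 20 came from T2 replicate 1, whose gated nuclei held a median of 543 UMIs, and the other samples had 2 to 6 each. At this depth a nucleus can miss sparse genes, so a nucleus with none is not shown to be another cell. The nuclei with none were almost all in the weakest stratum: 2 of the 99 nuclei with 2 or more flt3 UMIs (2.02%) and 48 of the 175 with 1 flt3 UMI (27.4%) had none. Conversely, at least 3 of the 24 genes were seen in 91.9% of the nuclei with 2 or more flt3 UMIs, in 53.7% of those with 1, in 13.1% of the nuclei gated by T cell genes and in 2.45% of the RHCG-high nuclei. RHCG-high nuclei are the 1263 nuclei without flt3 in which the ammonia transporter RHCG, a marker of gill pavement cells, reached 10000 CPM over its 3 loci. That level was chosen after the data were seen, since 1000 CPM took in 12721 nuclei. The genes were ranked on these same gated nuclei, so these shares describe the gate and are not an independent check of it.

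**Figure D2:**
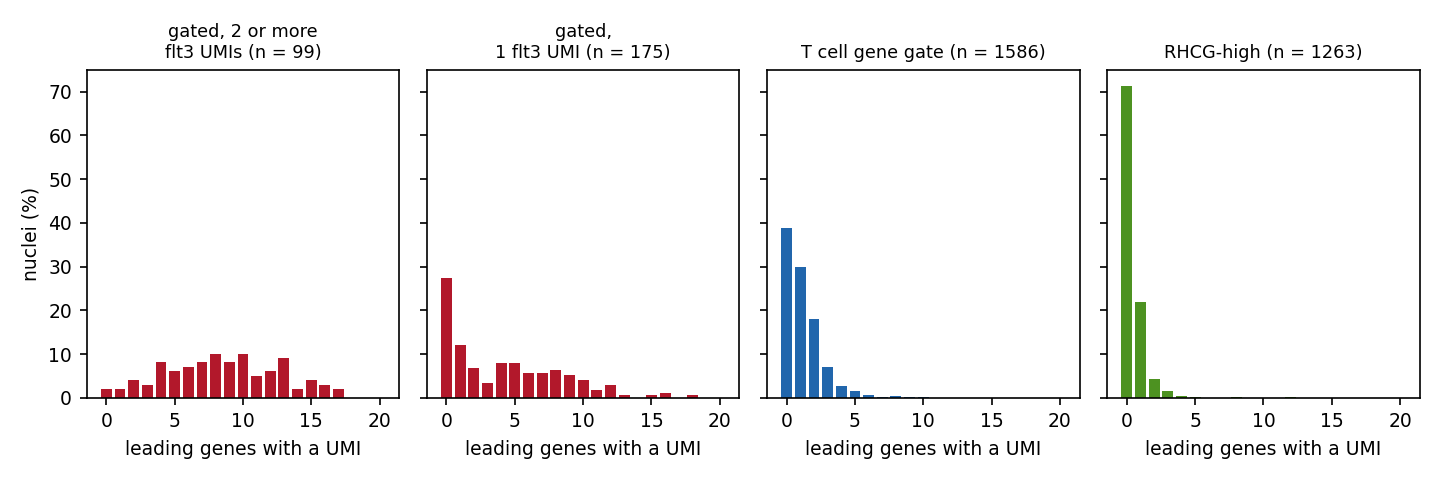
Number of the 24 leading genes with at least 1 UMI in a nucleus (horizontal axis) and the percentage of nuclei (bars), for gated nuclei with 2 or more flt3 UMIs, gated nuclei with 1 flt3 UMI, nuclei gated by T cell genes and RHCG-high nuclei. Only 2 of the 99 nuclei in the first panel had none of the genes, while 48 of the 175 in the second did.

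Free RNA in droplets can give a nucleus a stray flt3 UMI, and epithelial nuclei give a measure of it. Counting RHCG-high nuclei with and without flt3, 5 of 1280 fell into the flt3 gate (0.391%, 95% exact binomial interval 0.127 to 0.909), against 274 of all 19709 nuclei. A flt3 UMI was present in 17 of the 1280 RHCG-high nuclei (1.33%, median 1130.5 UMIs), against 473 of all nuclei (2.40%, median 849 UMIs) and 50 of 1636 nuclei gated by T cell genes (3.06%, median 663 UMIs). For thinning to 500 UMIs, nuclei with fewer were left out, which kept 18934 of the 19709. After thinning, the share with a flt3 UMI was 0.404% of RHCG-high nuclei, 2.36% of nuclei gated by T cell genes and 1.53% of all nuclei kept. At T3 and T4 together 0.772% of nuclei were gated, and 1 of 445 RHCG-high nuclei fell into the gate (0.225%, interval 0.00569 to 1.25). That interval, from 1 nucleus, is too wide to compare with the gated share. Of the 76 gated nuclei of T3 and T4, 40 carried at least 3 of the 24 leading genes. Those genes were ranked on the gated nuclei, these 76 included, so this is no independent check. At T1 and T2 together 2.01% were gated, and 4 of 835 RHCG-high nuclei were (0.479%, interval 0.131 to 1.22). RHCG-high nuclei held more UMIs, so that fewer of them could pass on 1 flt3 UMI. Intervals cover counting error only.

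The T cell condition removed some nuclei that resembled those kept. The 24 leading genes summed to 11410 CPM in the 49 nuclei that passed on flt3 but held a T cell gene, close to the 12294 of the gated nuclei and well above the 1985 of nuclei gated by T cell genes without flt3 and the 230.2 of RHCG-high nuclei. In the 109 nuclei with a flt3 UMI under the minimum the sum was 1339.

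Genes that define dendritic cells in mammals were higher in the gated nuclei in part. The 12 measured loci of the dendritic list other than flt3 summed to 1566 ± 544 CPM in gated nuclei, 681 ± 210 in nuclei gated by T cell genes, 521 ± 109 in RHCG-high nuclei and 578 ± 85.3 in all nuclei outside the gate. Of the 12 loci, 8 were higher in the gated than in the other nuclei and 4 of them by more than 1 on the log2 scale, with a median of 0.47, against a median of 0.16 over the 461 genes eligible for ranking. Itgae, the alpha E integrin by which intraepithelial leukocytes hold to E-cadherin, and which marks a dendritic cell subset in mammals, was at 672 and 895 CPM at T1, 345 and 894 at T2, 579 and 296 at T3, and 254 and 328 at T4 in gated nuclei. Every one of these values lay above the highest value of the other nuclei, 136.3. T cells of mucosal surfaces also carry this integrin, and itgae averaged 285 in the nuclei gated by T cell genes.

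Wdfy4, needed in mice for cross-presentation of antigen by dendritic cells, averaged 187 ± 113 CPM in gated nuclei and 27.2 in other nuclei, and was higher in 8 of 8 samples. Id2, an inhibitor of E proteins required by the conventional dendritic lineage, averaged 660 ± 250 in gated nuclei and 247 in other nuclei, again higher in 8 of 8 samples. Irf4, a transcription factor of a dendritic subset and of lymphocytes, rested on 9 UMIs in gated nuclei. Batf3, a marker of the cross-presenting lineage, and tcf4, a marker of the plasmacytoid lineage, were nearly missing at this depth. The gated nuclei held 1 UMI of batf3 and none of its second locus LOC106571544, and 1 UMI of tcf4. Bcl11a averaged 71.4 in gated nuclei and 148 in other nuclei, and the 2 CD83 loci (LOC106605366 and LOC106605367), a marker of mature dendritic cells, gave 7 and 2 UMIs. The zbtb46 loci, which mark conventional dendritic cells, gave 4 and 3 UMIs. No locus was matched here to XCR1, CD209 or CSF1R, so these markers are not analysed here.

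Genes of phagocytes and of the lysosome were mixed. Mpeg1, a pore-forming protein of macrophages and dendritic cells, stood at 902 and 973 CPM at T1, 345 and 710 at T2, 331 and 665 at T3, and 317 and 492 at T4 in gated nuclei, all above the 219 that was the highest level of the other nuclei. The macrophage list also held cd68, a lysosomal protein of macrophages, at 373 ± 116 in gated nuclei and 484 in other nuclei, lower in 8 of 8 samples. The complement genes c1qb and c1qc, made by macrophages, averaged 105 and 76.6 in gated nuclei and 71.6 and 52.4 in other nuclei, and each was higher in 5 of 8 samples. In all, 7 of 10 loci of the list were higher in gated nuclei, 2 of them by more than 1 on the log2 scale, with a median of 0.48.

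Prosaposin (psap, LOC106578810), the precursor of lysosomal sphingolipid activators, averaged 799 ± 482 CPM in gated nuclei and 231 in other nuclei, higher in 8 of 8 samples. Of 13 lysosome loci, 9 were higher in gated nuclei and 3 by more than 1. Genes of the phagocyte oxidase were not raised together. Cybb, the catalytic subunit, gave 1 UMI in the gate. CYBA (LOC106562274) averaged 159 ± 82.7 in gated nuclei and 240 in other nuclei, and was higher in 2 of 8 samples. Spd2b, matched here to NCF1 by name only, averaged 179 ± 84.4 in gated nuclei and 28.5 in other nuclei. Whether spd2b is an oxidase subunit was not tested. The neutrophil genes mmp9 and LECT2 (LOC106611589) were at 0 in the gate. The granulocyte colony-stimulating factor receptor csf3r averaged 63.5 ± 67.2 in gated nuclei and 34.3 in other nuclei.

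General leukocyte genes were the broadest group in the gate. Of 33 loci of leukocyte signalling, 27 were higher in gated than in other nuclei. By more than 1 on the log2 scale 23 were higher, with a median of 1.51 over the list. Only 5 of the 33 were higher in 8 of 8 samples, against 82 of the 461 genes eligible for ranking. Summed, the 33 loci gave 4166 ± 1611 CPM in gated nuclei, 2888 ± 1257 in nuclei gated by T cell genes, 756 ± 135 in RHCG-high nuclei and 1242 ± 402 in all nuclei outside the gate. ITGB2 belongs to this list and to the leading genes. Lyn, hck and syk are kinases below immune receptors, of which lyn averaged 145 ± 120 in gated nuclei, 26.7 in nuclei gated by T cell genes and 17.1 in other nuclei. A second lyn locus (LOC106569254) averaged 85.9 ± 44.9 in gated nuclei, 40.0 in nuclei gated by T cell genes and 23.7 in other nuclei. This second locus was higher in gated than in other nuclei in 7 of 8 samples. The myeloid kinase hck averaged 427 ± 230 in gated nuclei and 101 in other nuclei, higher in 8 of 8 samples. Ptprc, the pan-leukocyte phosphatase CD45, averaged 599 ± 327 in gated nuclei, 597 in nuclei gated by T cell genes and 149 in other nuclei. Cbl, the ubiquitin ligase that attenuates receptor tyrosine kinases such as FLT3, averaged 285 ± 133 in gated nuclei and 51.4 in other nuclei, higher in 8 of 8 samples, whereas 9 of the 18 FLT3 pathway loci other than flt3 were higher in gated nuclei, with a median log2 ratio of -0.01.

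Receptors for microbial products and their signalling genes did not set the gated nuclei apart as a sum. The 29 loci gave 2159 ± 719 CPM in gated nuclei and 1942 ± 518 in nuclei gated by T cell genes. They gave 2197 ± 849 in RHCG-high nuclei and 1720 ± 649 in all nuclei outside the gate. Of the 29 loci, 19 were higher in gated than in other nuclei and 7 by more than 1 on the log2 scale, with a median of 0.08. Single receptors were sparse. Tlr9, LOC106586812 (tlr7) and tlr13, endosomal Toll-like receptors for nucleic acids, gave 11, 9 and 8 UMIs in the gate. Tlr9 averaged 44.5 ± 49.3 CPM in gated nuclei and 2.43 in other nuclei, and was higher in only 4 of 8 samples.

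Antigen presentation genes did not set the gated nuclei apart. The 15 loci summed to 10681 ± 3127 CPM in gated nuclei, 8137 ± 2449 in nuclei gated by T cell genes, 18206 ± 6771 in RHCG-high nuclei and 11290 ± 4649 in all nuclei outside the gate. Of the 15 loci, 6 were higher in gated nuclei and none by more than 1 on the log2 scale. CD74 (LOC106604844), the invariant chain that escorts MHC class II molecules, was at 5184 and 2413 CPM at T1, 3426 and 4892 at T2, 2399 and 2807 at T3, and 2916 and 2626 at T4 in gated nuclei, against 4163 and 2189, 3195 and 5377, 2692 and 2197, and 2595 and 1982 in other nuclei at the same time points. The 2 sets overlapped at T1, T2 and T3, and at T4 both gated values lay above both others. Within a sample CD74 was higher in the gated nuclei except in T2 replicate 2 and T3 replicate 1. The MHC class II alpha chain locus LOC106565699 (HLA-DQA1) averaged 3343 ± 1256 in gated nuclei and 3936 in other nuclei. The list had a UMI in 98.9% of gated nuclei and in 99.8% of RHCG-high nuclei, and how much of either comes from free RNA was not tested.

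Markers of other cells set limits on the name. Beyond the genes of the rule, the T cell list summed to 170 ± 184 CPM in gated nuclei (range 0 to 584), 454 ± 218 in nuclei gated by T cell genes and 136 ± 65.0 in all nuclei outside the gate, and lck was at 0 in the gate. The cytotoxic list summed to 272 ± 119 CPM in gated nuclei, 329 ± 238 in nuclei gated by T cell genes, 18.8 ± 12.9 in RHCG-high nuclei and 68.9 ± 34.5 in all nuclei outside the gate, and was higher in gated than in other nuclei in 8 of 8 samples. Of its 8 loci, 5 were higher in gated nuclei, and 3 by more than 1 on the log2 scale. Crtam, which is carried by activated cytotoxic T and NK cells and binds a molecule of dendritic cells, was higher in the gated nuclei at both loci: crtam averaged 106 ± 48.6 in gated nuclei, 49.7 in nuclei gated by T cell genes and 11.4 in other nuclei, and its second locus (LOC106567642) 79.4 ± 69.2 in gated nuclei, 32.2 in nuclei gated by T cell genes and 7.55 in other nuclei. The granzyme A loci LOC106565782 and LOC106570903 averaged 19.2 and 7.92 in gated nuclei, 67.2 and 27.7 in nuclei gated by T cell genes and 15.3 and 7.96 in other nuclei. Eomes was at 0 in the gate, and PRF1 (LOC106577765) gave 2 UMIs. The B cell list summed to 216 ± 143 in gated nuclei (range 0 to 410) and 72.6 ± 23.8 in other nuclei, mostly through blnk, an adaptor of B cell and macrophage signalling, at 124 ± 93.3 in gated nuclei and 6.54 in other nuclei. The B cell genes ebf1, bank1 and cd37 were at 0 in the gate, cd79b gave 5 UMIs and an immunoglobulin light chain locus (LOC106606374) gave 4.

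RNA of the abundant gill and blood cells was present in the gated nuclei too. Red cell genes summed to 11116 ± 5113 CPM in gated nuclei (range 4892 to 19108) and 9741 ± 3633 in other nuclei. Pavement cell genes summed to 6501 ± 2574 in gated nuclei, 34909 ± 5243 in RHCG-high nuclei and 13664 ± 3306 in all nuclei outside the gate. The pavement list includes RHCG, by which the RHCG-high nuclei were chosen, so their level was partly set by that choice. Of its 19 loci, 0 were higher in gated than in other nuclei. Collagens and other genes of pillar cells and fibroblasts ranged from 692.6 to 15026 across the samples of the gate and from 2510 to 13336 in other nuclei. In 13 of the 14 cell cycle loci a UMI was seen, and they summed to 352 ± 103 in gated nuclei and 272 ± 49.9 in other nuclei.

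**Figure D3:**
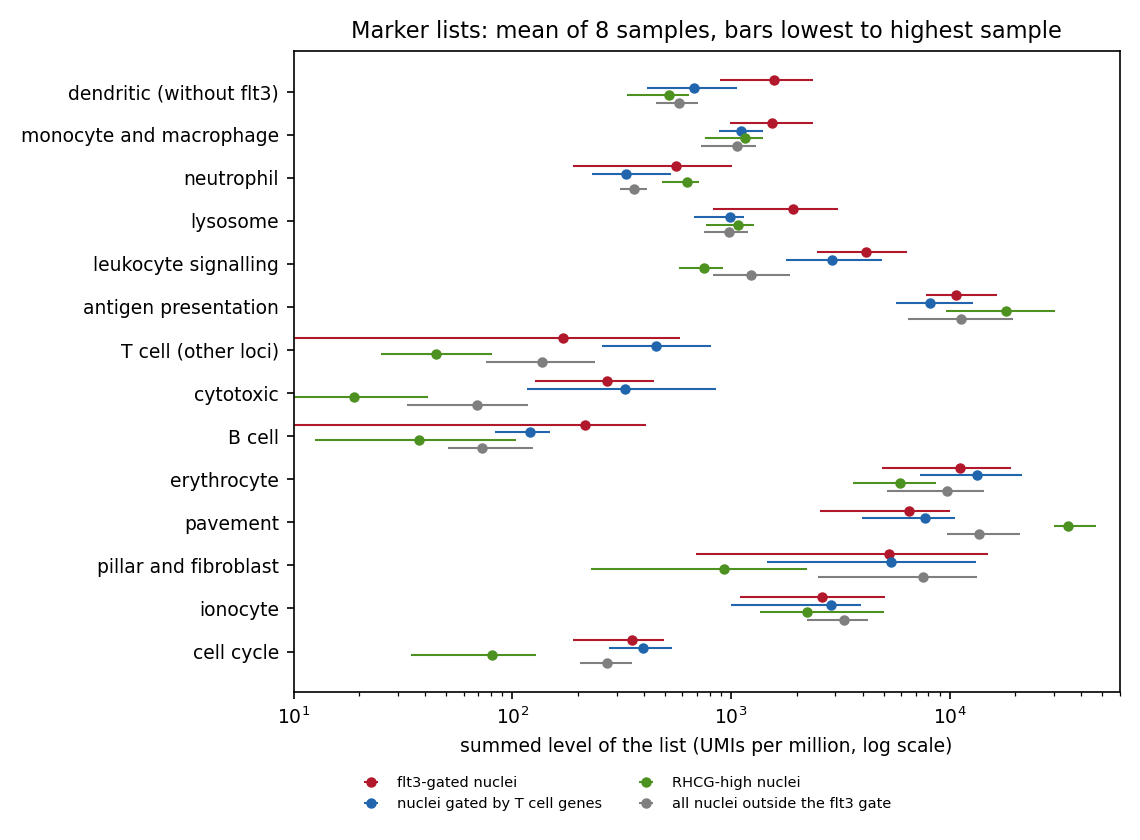
Summed level of 14 marker lists in CPM (log axis), as the mean of 8 samples with bars over the lowest to highest sample, in gated nuclei, nuclei gated by T cell genes, RHCG-high nuclei and all nuclei outside the gate; a bar that meets the left edge includes a sample at or near 0. By mean, gated nuclei stood highest for the dendritic list without flt3 (1566) and for leukocyte signalling (4166). They also stood highest for the monocyte and macrophage (1542), lysosome (1932) and B cell (216) lists. For antigen presentation they did not (10681, against 18206 in RHCG-high nuclei). The pavement list includes RHCG, by which the RHCG-high nuclei were chosen.

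By their genes, the gated nuclei held more RNA of general leukocyte genes and of several genes of dendritic cells and phagocytes than other nuclei. None of the leading genes other than flt3 was seen in 50 of the 274, of which 20 were in T2 replicate 1, the shallowest sample. The lists did not separate dendritic cells from monocytes or from cytotoxic cells. Of the 12 dendritic loci, 3 (itgae, wdfy4 and id2) were higher in 8 of 8 samples, against 82 of the 461 genes eligible for ranking. Batf3 and zbtb46 rested on a few UMIs. The summed cytotoxic list was also higher in 8 of 8 samples, mostly through the crtam loci.

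The gate was smaller after the return to constant light. Gated nuclei were 68 of 2763 nuclei (2.46%, 95% exact binomial interval 1.92 to 3.11) and 30 of 1982 (1.51%, 1.02 to 2.15) at T1, and 55 of 3373 (1.63%, 1.23 to 2.12) and 45 of 1748 (2.57%, 1.88 to 3.43) at T2. They were 16 of 2659 (0.602%, 0.344 to 0.975) and 20 of 2375 (0.842%, 0.515 to 1.30) at T3, and 22 of 2823 (0.779%, 0.489 to 1.18) and 18 of 1986 (0.906%, 0.538 to 1.43) at T4. The 4 samples of T3 and T4 therefore lay between 0.602% and 0.906%, under the 1.51% to 2.57% of the 4 samples of T1 and T2, with no overlap. As means of 2 samples with their SD, T1 had a share of 1.99 ± 0.670%, T2 one of 2.10 ± 0.667%, T3 one of 0.722 ± 0.170% and T4 one of 0.843 ± 0.0898%.

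Across the 4 time points the share fell by 0.51 on the log2 scale per time point (exact permutation test, two-sided, p = 0.0333 over 2520 arrangements of the samples). T3 and T4 together stood 1.36 lower than T1 and T2 together on the log2 scale, with means of 0.782 ± 0.131% at T3 and T4 and 2.04 ± 0.550% at T1 and T2 (exact permutation test, two-sided, p = 0.0286, the smallest that 4 samples against 4 allow). Adjusted over these 2 tests, both p-values were 0.0333. The trend test no longer passed 0.05 without T1 replicate 1 (exact p = 0.0873), T2 replicate 1 (0.0619), T3 replicate 2 (0.0571) or T4 replicate 1 (0.0698). With at least 2 flt3 UMIs asked of a nucleus, neither test passed 0.05: the slope was -0.83 (exact p = 0.0587), and T3 and T4 stood 1.86 lower than T1 and T2 on the log2 scale (exact p = 0.0857). The samples then overlapped, with T3 replicate 2 at 0.295% against T2 replicate 1 at 0.178%.

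Pairs of time points are given as values, since an exact permutation test of 2 samples against 2 cannot give less than 0.333. The mean share at T3 was 0.363 times that at T1 and 0.343 times that at T2, without overlap of the samples. The share at T2 was 1.06 times that at T1, and that at T4 after seawater was 1.17 times that at T3, both with overlapping samples. With nuclei of at least 500 UMIs thinned to 500 and the others left out, the T4 over T3 log2 ratio was -0.36, so its direction changed in that setting.

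**Figure D4:**
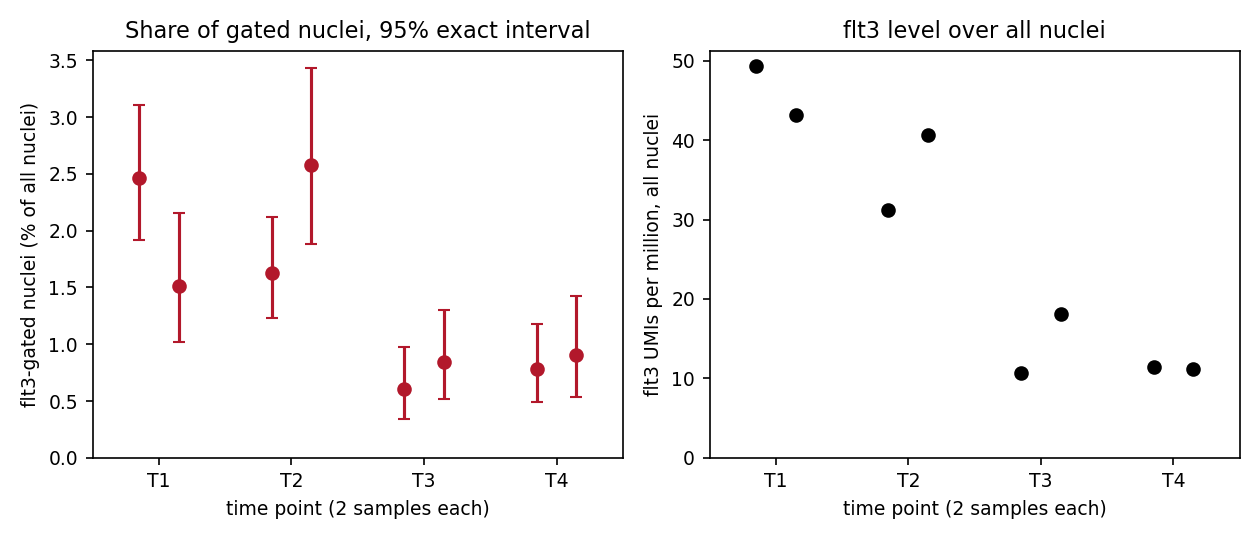
Left, gated nuclei as a percentage of all nuclei of each sample by time point, with 95% exact binomial intervals; right, flt3 CPM over all nuclei of each sample. The 4 samples of T3 and T4 lay between 0.602% and 0.906%, under the 4 samples of T1 and T2.

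The flt3 level over all nuclei, which shares most of its UMIs with the gate and is no independent measure, was also lower at T3 and T4 than at T1 and T2. It was at 49.3 and 43.2 CPM at T1, 31.2 and 40.7 at T2, 10.7 and 18.1 at T3, and 11.4 and 11.2 at T4. This measure was added after the data were seen. A lower share and less flt3 RNA per nucleus cannot be told apart with so few UMIs: within the gate flt3 stood at 2791 and 2918 CPM at T1, 2044 and 2525 at T2, 1737 and 2216 at T3, and 1839 and 1887 at T4.

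Depth differed between samples, and the leading genes were seen in a smaller share of the gated nuclei at T3 and T4. T2 replicate 1 had the lowest median depth of all samples (638 UMIs per nucleus, against 801 to 1031 in the others), and 49 of its 55 gated nuclei held a single flt3 UMI. Thinned to 500 UMIs, the share of nuclei passing the gate was 2.43% and 1.92% at T1, 1.39% and 2.35% at T2, 0.754% and 0.891% at T3, and 0.675% and 0.607% at T4. The slope was -0.64 (exact permutation test, two-sided, p = 0.00238). Leaving out nuclei under 500 UMIs kept 2663 of the 3373 nuclei of T2 replicate 1, so this setting also changed the set of nuclei. At least 3 of the 24 leading genes were seen in 40 of the 76 gated nuclei of T3 and T4 (52.6%), against 145 of the 198 of T1 and T2 (73.2%). By sample this share was 82.4% and 86.7% at T1, 45.5% and 84.4% at T2, 56.2% and 65.0% at T3, and 36.4% and 55.6% at T4. A smaller part of the T3 and T4 gates thus carried the leading genes, and the part that stray flt3 UMIs play in this was not tested.

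The leading genes were also seen in nuclei without flt3, many more than the gate held. Thinned to 500 UMIs, nuclei with no flt3 UMI and at least 3 of the 24 genes made up 8.79% and 8.41% of nuclei at T1, 1.95% and 9.47% at T2, 1.51% and 2.88% at T3, and 1.14% and 1.62% at T4. T2 replicate 1 lay with the T3 and T4 samples here. The choice of leading genes, which favoured T1 and T2, bears on these shares too. Nuclei gated by T cell genes made up 13.8% and 14.0% at T1, 5.81% and 17.4% at T2, 5.68% and 4.29% at T3, and 3.47% and 3.83% at T4.

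Few genes could be compared over time within the gate. The UMIs of gated nuclei were summed per sample, 12089 to 47646 UMIs each, and 365 genes passed the filter on low counts. Under edgeR's quasi-likelihood test at an adjusted p of 0.01, T3 against T1 had 1 gene called (0.274% of those tested) and T3 against T2 had 1 (0.274%). T2 against T1 and T4 against T3 had 0 called (0%), with 11 and 9 genes at an unadjusted p under 0.05, and DESeq2 also called 0 in both. Simulated counts at the depth of T3 against T1 had 200 genes changed at T3, and recovery was counted only among those that passed the filter. With a change of 2 on the log2 scale, 383 genes passed, and 2 of the 36 changed genes among them were recovered (5.56%). With a change of 4, 436 genes passed, and 93 of the 102 changed genes among them were recovered (91.2%). A rise at T3 can itself lift a gene over the filter, and changed genes that did not pass could not be called. Moderate changes were therefore mostly not detectable at this depth.

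The called gene was the unnamed locus LOC106562679 in both comparisons. In gated nuclei it was at 4467 and 3768 CPM at T3, against 168 and 38.9 at T1 and 115 and 0 at T2. All nuclei outside the gate showed the same order, with 6353 and 5071 at T3, against 622 and 431 at T1 and 295 and 9.51 at T2. Its log2 change in gated nuclei was 5.02 ± 0.66 (SE) for T3 over T1 (edgeR adjusted p = 0.00971) and 5.96 ± 0.72 for T3 over T2 (edgeR adjusted p = 0.00488). The call was lost without T1 replicate 1 (edgeR adjusted p = 0.156 for T3 over T1 and 0.0132 for T3 over T2) and without T1 replicate 2 (0.0860 and 0.0106). For LOC106562679 the change was not shown to differ between gated and other nuclei (log2 difference of the changes 1.64 ± 0.55 SE for T3 over T1, edgeR adjusted p = 0.992).

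Members of the lists did not pass the test at any time point. Of the 24 leading genes 19 were tested, and 0 of these 19 were higher at T3 than at T1 in gated nuclei and 19 were lower, with a median log2 change of -1.05 against -0.05 over all 365 genes. A leading gene had to reach 50 UMIs over the whole gate, to which T1 and T2 gave most UMIs, so the choice itself favoured genes high at those time points. Psap was at 414 and 739 CPM at T3 and 253.6 and 328 at T4, against 1196 and 1167 at T1 and 691 and 1605 at T2, and its log2 change of -1.15 ± 0.56 (SE) for T3 over T1 did not pass (edgeR adjusted p = 0.643). Mpeg1 had a log2 change of -1.04 ± 0.59 and itgae one of -0.99 ± 0.67 for T3 over T1 in gated nuclei (edgeR adjusted p = 0.643 and 0.659). These differences stand beside the lower share of gated nuclei with leading genes at T3. The 5 antigen presentation loci tested were all lower at T3 than at T1, with a median log2 change of -0.63, and 0 were called.

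Red cell genes in the gate had higher values at T3 than at T2, as they did in other nuclei, and none passed the test. Of 12 red cell loci tested, 11 were higher at T3 than at T2 in gated nuclei, 9 at an unadjusted p under 0.05 and 0 after adjustment. Over all 365 genes tested, 21 had an unadjusted p under 0.05 in that comparison. Over all nuclei outside the gate, the red cell list stood at 13732 and 12933 at T3, against 6164 and 5200 at T2, and the gate had 19108 and 15366 at T3, against 6736 and 4892 at T2.

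Changes in the gate were not shown to differ from those of the rest of the tissue. The test of the difference in change between gated and all other nuclei called 0 of 365 genes in T2 against T1, T3 against T1, T3 against T2 and T4 against T3 (edgeR, adjusted p of 0.01, 0% each), with 11, 11, 16 and 9 genes at an unadjusted p under 0.05, and DESeq2 also called 0 in each.

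**Figure D5:**
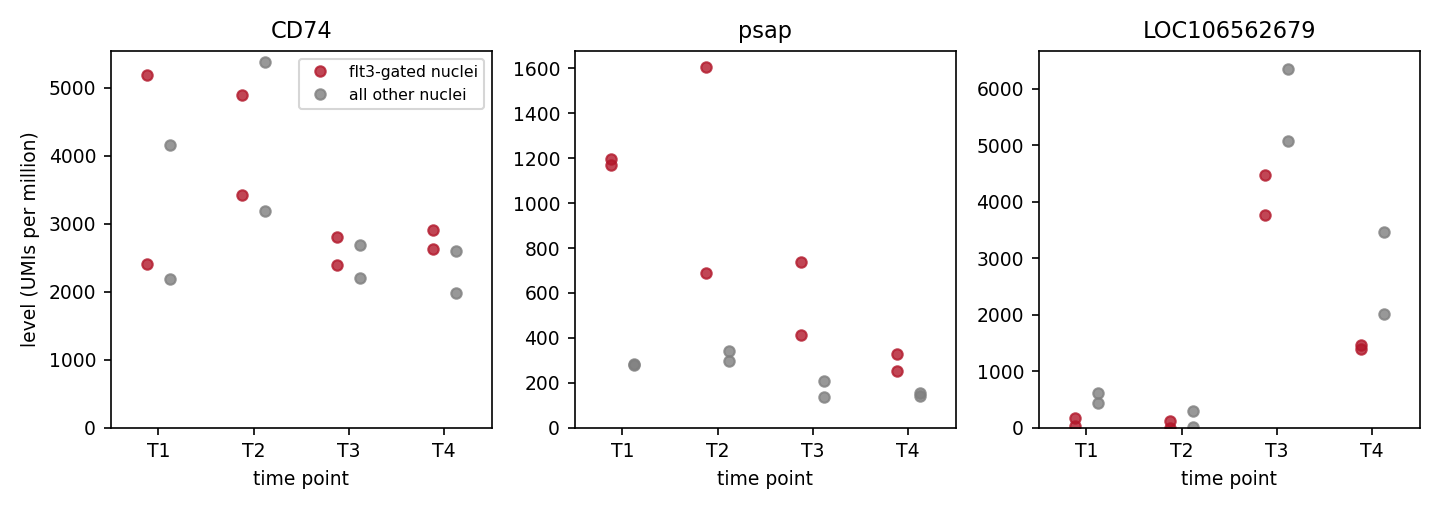
Level in CPM of CD74, psap and LOC106562679 by time point, with a point per sample for gated nuclei (red) and all other nuclei (grey). CD74 overlapped between the 2 kinds of nuclei at T1, T2 and T3, psap was higher in gated nuclei in 8 of 8 samples, and LOC106562679 was highest at T3 in both.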

How the data were processed

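Single nucleus libraries of the gill (10x Chromium 3′ version 3) were counted by the authors with Cell Ranger (3.0.1 in the submitters' processing notes) against the NCBI annotation of Atlantic salmon. The deposited files hold UMI counts per gene and nucleus, not normalized, for 8 samples with 421 or more UMIs per nucleus. No other filter was applied to nuclei. The members of the gate and the gene lists were chosen with earlier results of these data known.

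Levels are CPM, counts per 1000000 of the UMIs summed over a class of nuclei in each sample. Named genes were the 25 leading genes, list members, the genes of the rule and called genes; a gene's name came from the files, the RefSeq gene table or the HGNC names given in the study's supplement. Shares were tested by exact permutation over samples (Python 3.11.15, scipy 1.17.1). UMIs summed over gated nuclei per sample were tested with edgeR 4.0.16 (TMM factors, filterByExpr with a minimum count of 10, time point only, all 8 samples, Benjamini-Hochberg threshold 0.01) in R 4.3.3, with DESeq2 1.42.0 as an alternative, and the procedure was tested on simulated data. Alternatives changed the gate, depth, filter, tool, threshold, replicate block and samples. Some genes are not reported here.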

Additional observations from a re-analysis of the deposited data

How the results depend on the processing

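Both tests of the gated share kept their direction under every alternative run. The trend passed 0.05 in 10 of 16 alternatives and T3 and T4 against T1 and T2 in 14 of 16. With at least 2 flt3 UMIs the trend was -0.83 (exact p = 0.0587) and the log2 difference of T3 and T4 from T1 and T2 was -1.86 (exact p = 0.0857), and T3 over T1 was -2.36 on the log2 scale. T4 over T3 was -0.25 without the CPM minimum and -0.36 with thinning; alternatives for pairs of time points were added after the data were seen. Leaving out each sample in turn gave slopes of -0.62 to -0.46 (exact p 0.0270 to 0.0873), differences of -1.49 to -1.24 (exact p = 0.0286), and log2 ratios of -0.29 to 0.47 for T2 over T1, -1.77 to -1.07 for T3 over T1, -1.83 to -1.18 for T3 over T2 and 0.0012 to 0.49 for T4 over T3. The cause was not tested.

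The labels state no pairing of samples by replicate number. For 211 genes, the deviation of each replicate 1 sample from the mean log2 level of its time point was taken. These deviations correlated between time points at 0.0012 to 0.44. With 2 samples per time point this does not settle whether same-numbered samples share an effect. With the replicate block the slope stayed -0.51 (exact p = 0.0590), the difference -1.36 (exact p = 0.0556, the smallest it allows), and edgeR called 1 gene in T2 against T1. The block changed no other call.

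Without a filter on low counts edgeR called 3 genes in T3 against T1 and 3 in T3 against T2. Leaving out each sample gave 0 to 6 genes in T2 against T1 (3 without T2 replicate 2, 6 without T3 replicate 1, 2 without T3 replicate 2 and 2 without T4 replicate 2), 0 to 4 in T3 against T1 and 0 to 2 in T3 against T2 (0 without either T1 sample, the highest without T3 replicate 1 and without T4 replicate 2), 0 to 1 in T4 against T3 (1 without T3 replicate 1), and 0 to 1 for the difference in change in T2 against T1 (1 without T2 replicate 2). The fits without a T3 or T4 sample tested 712 to 756 genes and those without a T1 or T2 sample 338 to 348, and a time point left with 1 sample was taken to vary like the others. Depth limits all of these: the gated nuclei of a sample summed to at most 47646 UMIs.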
